A study of Arabidopsis thaliana with 12 samples.

Results

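Germinated seeds of wild type (WT) Arabidopsis thaliana, accession Col-0, were compared after 2 h with abscisic acid (ABA) and after 2 h without it. These 2 groups are WT ABA and WT mock, with 3 libraries each, and they make up 6 of the 12 libraries of a study of WT and of sr34a-1, a mutant of the splicing factor gene SR34A. Stratified seeds of both groups grew for 44 h on Murashige and Skoog medium at 21 °C in continuous white light of 100 µmol per square metre, and were moved to the same medium with 0.5 µM ABA (WT ABA) or with no hormone (WT mock). RNA came from whole seedlings, so that each value is an average over root, hypocotyl, cotyledons and what remained of the endosperm. The other 6 libraries, of sr34a-1 under the same treatments, entered the fits to estimate the spread between replicates and no contrast given here. The sample titles call the libraries biological replicates. They do not say whether these were separate cultures, so p-values measure the spread between these libraries, which may in part be technical.

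ABA is the hormone that keeps seeds dormant and halts seedling growth when water is short. It binds receptors of the PYR/PYL family, which then hold back the clade A PP2C phosphatases. This releases the SnRK2 kinases, which phosphorylate group A bZIP factors such as ABI5 and the ABFs, and these bind promoters at the ABA-responsive element (ABRE), whose core is ACGTG. In germinated seeds this module can stop growth for a time after the root has emerged and bring back genes of late seed maturation.

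Counts in the WT ABA libraries summed to between 61128187 and 72745537, and those in the WT mock libraries to between 62235081 and 83268758. The first principal component of log2 CPM (read counts scaled to the library's total) over the 6 libraries held 72.4% of the variance, with the WT ABA libraries from 44.94 to 46.93 and the WT mock libraries from -47.43 to -44.39. Among tissue markers with many reads, the epidermal gene PDF1, the root hair gene PRP3 and the phloem gene SUC2 were read in every library. Their mean levels were 626, 233 and 157 CPM in WT ABA and 492, 214 and 111 CPM in WT mock. Other markers had few reads, such as the shoot meristem gene WUS with 9, 10 and 0 reads in WT ABA. ICL, the isocitrate lyase of the glyoxylate cycle that turns seed oil into sugar, had 10300 CPM on average in WT ABA and 9130 CPM in WT mock.

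Of 21256 genes tested, 7461 or 35.1% differed between WT ABA and WT mock (quasi-likelihood test of edgeR, p under 0.05 after Benjamini-Hochberg adjustment). They split into 3858 genes higher after ABA, 18.2% of those tested, and 3603 lower, 17.0%. The list counts below are to be read against these shares. Most changes were small, with a median absolute log2 fold change of 0.40 among called genes. A log2 fold change of at least 1 was called for 801 genes (3.77% of those tested), and a fall of the same size for 619 (2.91%). Large changes went mostly upward: 159 genes rose by at least 3 on the log2 scale and 57 fell by that much. The CPM of both groups did not overlap for 9596 genes, or 45.1%. With limma on log2(cRPKM + 1) the balance of directions moved, with 3042 genes higher and 4602 lower, or 39.8% higher against 51.71% with edgeR.

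Among called genes with a log2 of their mean CPM of at least 1 and no overlap between the groups, the 12 largest increases included RD29A, KIN1, COR15A and RD20, known from drought and cold, beside genes with no symbol. RD29A (AT5G52310, chromosome 5, 21240717 to 21243644), a classic reporter of drought and ABA, had 1070, 1150 and 1040 CPM in WT ABA against 14.4, 24.2 and 19.1 CPM in WT mock. KIN1 (AT5G15960), a small cold- and ABA-induced protein, had 61.9, 69.4 and 64.2 CPM in WT ABA against 0.767, 0.750 and 1.11 CPM in WT mock. In both genes each treated library stood far above every mock library, with log2 fold changes of 5.81 (SE 0.18) and 6.21 (SE 0.11). KIN1 lies beside the very similar KIN2, and reads of the pair may have been divided between them. RD20 (AT2G33380), a calcium-binding caleosin, averaged 23.9 ± 2.99 CPM in WT ABA and 0.536 ± 0.120 CPM in WT mock (SD, n = 3 each). Other genes among the 12 largest increases were LAC12, a laccase, ABCG16, an ABC transporter, and HAI1 and MYB102, described below. AT2G37870, annotated as a lipid-transfer-like protein, had 6.02, 6.59 and 8.66 CPM in WT ABA against 0.128, 0.0469 and 0.0794 CPM in WT mock. The protein kinase gene AT5G24080 had 545, 768 and 694 reads in the WT ABA libraries, against 0, 1 and 0 reads in the WT mock libraries. AT4G36610, an alpha/beta-hydrolase gene, ranged most within its group, with 2.36, 6.42 and 3.73 CPM in WT ABA against 0, 0.141 and 0.0794 CPM in WT mock.

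By the same criteria the 12 largest decreases included a laccase, a cellulase, an oligopeptide transporter and the ABA receptor gene PYL6. LAC7 (AT3G09220, chromosome 3, 2827190 to 2830655), a laccase, had 19.4, 15.9 and 15.7 CPM in WT ABA against 147, 160 and 161 CPM in WT mock. OPT1 (AT5G55930), an oligopeptide transporter, had 3.82, 3.44 and 4.31 CPM in WT ABA against 35.1, 32.6 and 33.4 CPM in WT mock. The replicates of these genes were close to each other, and the groups lay apart by log2 fold changes of -3.20 (SE 0.095) and -3.13 (SE 0.12). CEL5, a cellulase, averaged 1.32 ± 0.160 CPM in WT ABA and 17.3 ± 0.634 CPM in WT mock (SD, n = 3 each). The bHLH factor gene BHLH129 averaged 3.44 ± 0.847 CPM in WT ABA and 36.6 ± 7.20 CPM in WT mock (SD, n = 3 each). CRK30, a cysteine-rich receptor-like kinase, and AT5G48430, an aspartyl protease, fell by 3.12 and 3.22 on the log2 scale. AT2G41990, which RefSeq annotates as a late embryogenesis abundant protein, had 1.31 ± 0.309 CPM in WT ABA and 11.6 ± 0.390 CPM in WT mock, so that it fell while nearly all listed genes of that kind rose.

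Promoters of raised genes that hold the ABRE are shown beside those of lowered genes. Of the 12 genes named above for the largest increases 5 hold the form ACGTGNC between 250 bases before and 50 after the start, and of the 12 named for the largest decreases 0 do. Among called genes with a log2 of their mean CPM of at least 1, the 6 raised genes shown are those with the largest increases whose 250 bases before the annotated start hold the form ACGTGNC, and the 2 lowered ones had the largest decreases and do not hold it. Capitals mark ACGTGNC, read on either strand, so its reverse complement GNCACGT is also in capitals. Sequences are written 5′ to 3′ in the direction of the gene, from the RefSeq TAIR10.1 genome, and end at the base before the annotated start.
AT5G24080 (protein kinase, raised, minus strand, chr5:8142433-8142682): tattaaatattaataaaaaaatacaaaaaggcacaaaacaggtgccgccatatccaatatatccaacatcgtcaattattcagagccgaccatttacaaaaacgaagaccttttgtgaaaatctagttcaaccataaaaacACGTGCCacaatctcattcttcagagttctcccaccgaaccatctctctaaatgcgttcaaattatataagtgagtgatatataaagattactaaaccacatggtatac
MYB102 (raised, minus strand, chr4:11419770-11420019): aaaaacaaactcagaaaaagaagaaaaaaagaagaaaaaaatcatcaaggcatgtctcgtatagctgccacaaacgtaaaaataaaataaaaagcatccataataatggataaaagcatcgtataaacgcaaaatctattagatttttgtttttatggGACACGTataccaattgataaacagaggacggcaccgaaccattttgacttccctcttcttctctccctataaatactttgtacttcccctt
AT5G05220 (uncharacterized protein, raised, plus strand, chr5:1550001-1550250): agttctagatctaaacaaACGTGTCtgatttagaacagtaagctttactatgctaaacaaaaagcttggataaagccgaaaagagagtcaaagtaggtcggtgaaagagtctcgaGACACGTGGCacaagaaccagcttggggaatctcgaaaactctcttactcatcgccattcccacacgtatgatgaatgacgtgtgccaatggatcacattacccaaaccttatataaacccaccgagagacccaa
AT3G48510 (raised, minus strand, chr3:17968591-17968840): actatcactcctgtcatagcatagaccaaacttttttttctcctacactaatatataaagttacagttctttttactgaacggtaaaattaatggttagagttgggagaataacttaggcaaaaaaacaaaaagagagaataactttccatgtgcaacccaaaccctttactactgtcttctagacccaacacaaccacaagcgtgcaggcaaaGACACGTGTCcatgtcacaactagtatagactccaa
NAC019 (raised, minus strand, chr1:19698483-19698732): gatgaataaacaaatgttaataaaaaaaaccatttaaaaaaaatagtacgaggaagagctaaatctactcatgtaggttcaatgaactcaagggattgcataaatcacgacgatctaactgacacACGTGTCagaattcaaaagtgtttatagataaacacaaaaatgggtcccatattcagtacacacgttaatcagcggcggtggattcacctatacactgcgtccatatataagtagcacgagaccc
AT5G45690 (raised, minus strand, chr5:18536317-18536566): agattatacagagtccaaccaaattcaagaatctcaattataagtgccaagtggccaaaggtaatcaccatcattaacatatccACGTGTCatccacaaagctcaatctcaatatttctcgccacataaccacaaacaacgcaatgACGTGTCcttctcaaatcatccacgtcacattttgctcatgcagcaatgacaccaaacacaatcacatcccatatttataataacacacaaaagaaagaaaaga
AT2G43860 (pectin lyase-like, lowered, minus strand, chr2:18164429-18164678): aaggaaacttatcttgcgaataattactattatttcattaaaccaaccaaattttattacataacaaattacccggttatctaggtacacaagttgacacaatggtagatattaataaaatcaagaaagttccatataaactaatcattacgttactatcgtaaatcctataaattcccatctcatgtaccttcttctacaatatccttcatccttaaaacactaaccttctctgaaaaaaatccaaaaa
PYL6 (ABA receptor, lowered, minus strand, chr2:16846195-16846444): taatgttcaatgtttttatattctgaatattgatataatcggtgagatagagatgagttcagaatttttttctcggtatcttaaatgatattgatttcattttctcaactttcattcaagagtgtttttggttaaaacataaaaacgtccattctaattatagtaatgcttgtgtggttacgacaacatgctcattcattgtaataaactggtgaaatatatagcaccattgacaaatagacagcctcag
In AT3G48510 and AT5G05220 a pair of matches overlaps, because CACGTG reads the same on both strands. Matches in the 6 raised promoters began between 232 and 33 bases before the start. No shown window overlaps an annotated exon.

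Across all genes, ACGTGNC was more frequent the more a gene had risen, up to a log2 fold change of 4. In a window from 250 bases before to 50 after the start, it was present in 35.2% of 784 promoters of genes raised by at least 1 on the log2 scale, in 78 of 156 raised by at least 3, in 6.1% of 603 lowered by at least 1, and in 11.9% of all 20509 tested promoters (10.3% of 27443 protein-coding promoters). By steps of log2 fold change the share was 5.1% below -3, 9.1% from -0.5 to 0, 12.8% from 0 to 0.5, 25.5% from 1 to 2, 41.1% from 2 to 3 and 61.2% from 3 to 4. It was lower again, 36.6% of 71 promoters, in the step from 4 upward. A pair or more of matches was present in 31.8% of the promoters from 3 to 4. Matches in genes raised by at least 1 gathered near the start: 13.78% of the promoters had one between 100 and 51 bases before it and 3.19% between 500 and 451, against 2.62% and 0.81% in genes that were not called. The shorter core ACGTG was in 53.7% of promoters of genes raised by at least 1, 26.0% of those lowered and 28.3% of all tested.

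**Figure D1:**
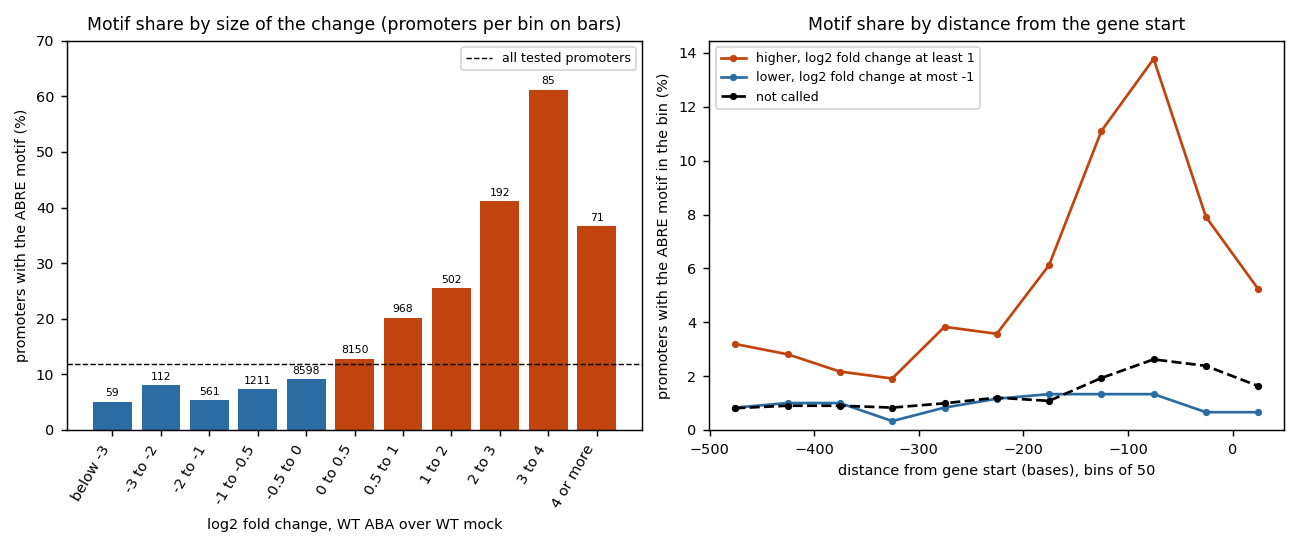
Left, the percentage of promoters (250 bases before to 50 after the gene start) that hold the ABRE motif, by step of log2 fold change of WT ABA over WT mock, with the number of promoters above each bar and the share of all tested promoters (11.9%) as a dashed line. Right, the percentage of promoters with a match in each bin of 50 bases from the gene start, for genes raised by at least 1, lowered by at least 1, and not called; the raised genes reach 13.78% in the bin from 100 to 51 bases before the start.

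Other motifs were searched on both strands in the same window. The G-box CACGTG, which overlaps ACGTG, was in 28.4% of promoters raised by at least 1, 3.6% of those lowered by at least 1 and 9.0% of all tested. The core of the dehydration-responsive element, CCGAC, was in 21.7%, 12.3% and 16.1% of the same sets. The RY element CATGCA of seed genes was in 17.9% of raised and 15.4% of lowered promoters, against 9.0% of all tested. The W-box core TTGAC was in 51.1%, 61.2% and 51.0%. The site II motif TGGGCC, known from genes of growing cells, was rarer in both changed sets, with 9.4% and 3.3% against 18.4%. The telo-box AAACCCTA was in 1.9%, 3.6% and 5.4%, and the auxin response motif TGTCNC in 36.2%, 31.2% and 29.2%. A match describes letters and does not show binding. The motif was also present in genes that were not raised: 13 of 32 photosystem, Calvin cycle and Rubisco promoters held it, and 0 of those 32 genes rose.

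ABA receptors were mostly lower after treatment. Of 13 receptor genes tested, 7 fell and 2 rose, with a median log2 fold change of -0.56 against -0.01 for all genes. PYL4 had 46.0, 47.7 and 34.7 CPM in WT ABA against 188, 182 and 183 CPM in WT mock. PYL6 had 1.57, 1.79 and 1.90 CPM in WT ABA against 29.9, 27.3 and 35.5 CPM in WT mock. In both, the groups were far apart, with log2 fold changes of -2.11 (SE 0.11) and -4.14 (SE 0.23). PYL5, PYR1, PYL8 and PYL1 fell by 1.69, 1.07, 0.58 and 0.56 on the log2 scale. PYL7 went the other way, with 6.85 ± 0.915 CPM in WT ABA and 4.26 ± 0.841 CPM in WT mock (SD, n = 3 each, edgeR adjusted p 0.00258). PYL13, a receptor with few reads, had 17, 27 and 8 reads in WT ABA against 0, 0 and 1 in WT mock. PYL2 and PYL9 differed by -0.32 and 0.15 and were not called.

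The phosphatases that act against the pathway all rose. Each of the 9 clade A PP2C genes was called higher, 8 of them by at least 1 on the log2 scale, with a median of 3.06. HAI1 had 23.3, 24.9 and 27.5 CPM in WT ABA against 0.559, 0.539 and 0.265 CPM in WT mock. HAI3 had 10.1, 9.64 and 9.18 CPM in WT ABA against 0.527, 0.961 and 1.32 CPM in WT mock. No library of either treatment came near the other group in these genes, whose log2 fold changes were 5.80 (SE 0.17) and 3.33 (SE 0.24). ABI1, ABI2, AHG1, PP2CA and HAB1, the best known members in seeds, rose by 1.83, 3.12, 3.24, 2.73 and 2.05. The smallest change of the group was 0.87, in HAB2. Summed over the 9 genes, levels were 665 to 729 CPM in WT ABA and 169 to 188 CPM in WT mock.

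Kinases changed less than the phosphatases at the RNA level. Of the 10 SnRK2 genes, 3 rose and 1 fell, with a median of 0.05. SNRK2.7 had 16.7, 12.1 and 15.3 CPM in WT ABA against 3.21, 2.76 and 2.67 CPM in WT mock, a log2 fold change of 2.35 (SE 0.15). Among the kinases most directly tied to ABA, SNRK2.6 rose by 0.42 while SNRK2.2 and SNRK2.3 differed by -0.03 and -0.10 and were not called. Among MAP kinase modules of ABA signalling, 5 of 12 genes rose and 2 fell. MAPKKK18 had 3.77, 3.49 and 4.16 CPM in WT ABA against 0.192, 0.433 and 0.199 CPM in WT mock, and MAPKKK17 and MAPKKK16 rose by 1.86 and 1.47. MAPKKK19 had 0.539, 0.648 and 0.944 CPM in WT ABA against 3.51, 3.70 and 3.32 CPM in WT mock, and with MAPKKK20 it formed the lowered pair of this list. MPK7, a downstream kinase, rose by 1.04, and MKK3 between them differed by 0.06 without a call.

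Transcription factors of the core pathway rose together with their repressors. Of 9 group A bZIP genes tested, 7 rose and 0 fell. ABI5, the factor that holds back seedling growth, had 109, 94.5 and 97.7 CPM in WT ABA against 13.7, 14.9 and 12.2 CPM in WT mock. ABF3 averaged 140 ± 5.35 CPM in WT ABA and 39.9 ± 4.65 CPM in WT mock (SD, n = 3 each). Their log2 fold changes were 2.89 (SE 0.096) and 1.81 (SE 0.068), and ABF2, ABF1 and ABF4 rose by 0.83, 0.59 and 0.52. Each of the 4 AFP genes, whose proteins bind ABI5 and promote its breakdown, rose. AFP1 had 95.9, 93.9 and 115 CPM in WT ABA against 5.94, 6.89 and 6.45 CPM in WT mock. AFP3 and AFP2 rose by 2.38 and 1.33. Among regulators of seed maturation, ABI3 had 50.4, 46.0 and 47.4 CPM in WT ABA against 15, 16.6 and 11.9 CPM in WT mock, and FUS3 rose by 1.38. Without mock replicate 2 or mock replicate 3, 1 of the 9 tested genes of that list was called higher in place of these 2. Their repressors HSI2, HSL1 and PKL, which shut the seed programme after germination, differed by -0.06, -0.09 and 0.01 and were not called.

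Regulators around the core included ubiquitin ligases that act on it. Of 22 genes in this list, 11 rose and 3 fell (1 without ABA replicate 2 or without mock replicate 1). PUB19, a ubiquitin ligase that acts against drought and ABA responses, had 54.4, 45.3 and 49.3 CPM in WT ABA against 2.76, 3.62 and 2.77 CPM in WT mock. The paralogue PUB18 rose by 1.06, and AIP2, a ligase for ABI3, by 0.48. The ABI5 ligase KEG differed by 0.08 and was not called.

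**Figure D2:**
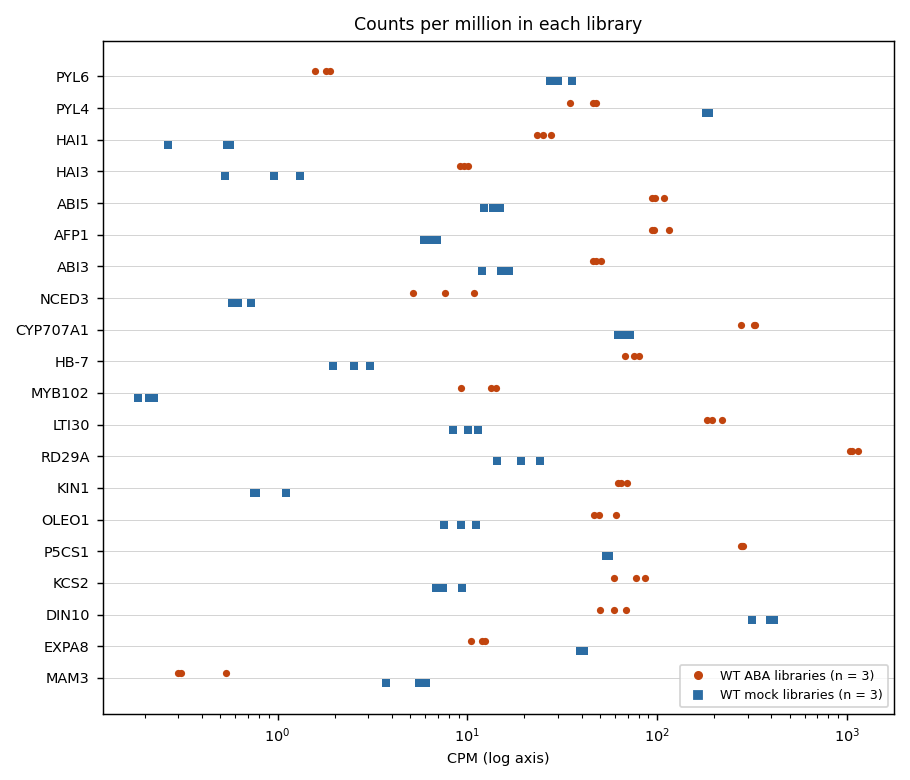
CPM on a log axis for 20 genes of the pathway lists in each WT ABA library (circles, upper row of each gene) and each WT mock library (squares, lower row). They were picked after their values were seen, among genes whose groups do not overlap; levels of different genes are not comparable, since CPM are not scaled to gene length.

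Genes of both ABA synthesis and ABA breakdown rose. Of 10 synthesis genes tested, 5 rose and 0 fell. NCED3, which cleaves the carotenoid precursor in the rate-limiting step, had 5.19, 7.59 and 10.8 CPM in WT ABA against 0.575, 0.726 and 0.622 CPM in WT mock. The zeaxanthin epoxidase gene ABA1 had 224, 239 and 225 CPM in WT ABA against 110, 113 and 110 CPM in WT mock. Their log2 fold changes were 3.60 (SE 0.34) and 1.05 (SE 0.041), and NCED9, the form of late seed development, rose by 2.29. All 4 CYP707A genes for ABA 8′-hydroxylases, which inactivate the hormone, rose by 1.32 to 2.93. CYP707A1 had 323, 277 and 328 CPM in WT ABA against 72.1, 62.4 and 67.7 CPM in WT mock, and CYP707A2, the main form in imbibed seeds, had 26.1, 25.6 and 26.3 CPM against 6.37, 6.50 and 5.46 CPM in WT mock. The glucosyltransferase gene UGT71C5 averaged 11.4 ± 1.21 CPM in WT ABA and 15 ± 0.923 CPM in WT mock (SD, n = 3 each), a fall by 0.40 on the log2 scale. Of 8 transporter genes, 4 rose and 1 fell, with the exporter gene ABCG25 at 67.0 ± 5.81 CPM in WT ABA and 40.1 ± 1.46 CPM in WT mock. Without mock replicate 3, only 2 of the transporter genes were called higher.

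Listed NAC, homeobox and MYB factors of the ABA response were raised almost throughout: 17 of 18 rose and 1 fell, with a median of 1.76. They were chosen for that response, with earlier results of these data known, so the count does not describe their families. Grouped by symbol, 16 of 39 NAC genes rose and 3 fell, and 4 of 28 ANAC genes rose and 8 fell. Of 53 MYB genes 17 rose and 11 fell, of 30 ATMYB genes 9 and 6, and of 20 ATHB genes 7 and 3. MYB102, whose promoter is shown above, had 9.21, 13.4 and 14.2 CPM in WT ABA against 0.224, 0.211 and 0.185 CPM in WT mock. HB-7, a homeodomain factor that restrains growth in drought, had 68.0, 75.1 and 80.4 CPM in WT ABA against 1.95, 3.08 and 2.52 CPM in WT mock. Both were apart from mock in every library, with log2 fold changes of 5.88 (SE 0.26) and 4.87 (SE 0.12). NAC019 and RD26, NAC factors of drought and senescence, rose by 4.24 and 1.98, and MYB96, which drives wax genes, by 1.84. MYB41, a regulator of suberin, had 62, 102 and 63 reads in WT ABA and 0 reads in all WT mock libraries. HB5 was the member that fell, with 231 ± 7.51 CPM in WT ABA and 287 ± 1.03 CPM in WT mock (SD, n = 3 each). SOM, a zinc finger gene that delays germination in the dark, averaged 135 ± 4.16 CPM in WT ABA and 11.1 ± 2.70 CPM in WT mock (SD, n = 3 each). PIF6, a bHLH factor of the phytochrome-interacting group, rose by 2.40.

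In the list of CBF, DREB and RAV factors, 8 of 14 rose and 4 fell. DREB2A, which binds the dehydration-responsive element, had 53.0, 43.3 and 44.7 CPM in WT ABA against 15.5, 11.1 and 7.23 CPM in WT mock. TEM2, a RAV factor, had 23.9, 22.9 and 16.9 CPM in WT ABA against 37.4, 50.6 and 44.3 CPM in WT mock. Their log2 fold changes were 2.07 (SE 0.23) and -1.05 (SE 0.13). CBF1 had 15, 21 and 15 reads in WT ABA and 0 reads in all WT mock libraries, and lies in a tandem row with CBF2 and CBF3, so that reads of the 3 may be divided. Without ABA replicate 3 or mock replicate 2, 2 members were called lower in place of 4. Among heat shock factors, HSFA6B, known as a target of ABA, had 19.1, 26.2 and 38.9 CPM in WT ABA against 1.39, 1.64 and 1.11 CPM in WT mock. In the list of small heat shock proteins, chaperones and heat shock factors 9 of 26 rose and 4 fell (2 without ABA replicate 2 or without ABA replicate 3), and HSP101 and HSP17.4 differed by -0.08 and -0.27 without a call.

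Listed genes for protective proteins of drying cells rose in nearly every case. They were chosen with earlier results of these data known, so the counts do not describe all genes of these kinds. AT2G41990, named above for its fall, is annotated as such a protein. Of 25 LEA, COR, KIN and RD genes, 24 rose and 0 fell, with a median of 3.05, and of 7 dehydrins 6 rose with a median of 2.36 (1 fell as well without ABA replicate 2 or without mock replicate 1). COR15A, a chloroplast-targeted protein that shields membranes, had 9.87, 13.0 and 9.49 CPM in WT ABA against 0.0639, 0.141 and 0.0132 CPM in WT mock. The dehydrin gene LTI30 had 194, 220 and 184 CPM in WT ABA against 8.37, 11.4 and 10.1 CPM in WT mock, and ERD10 had 287, 322 and 242 CPM against 32.5, 36.7 and 36.3 CPM in WT mock. These genes lay apart in all libraries, and their log2 fold changes were 7.12 (SE 0.33), 4.32 (SE 0.11) and 3.01 (SE 0.10). EM1 and EM6, LEA proteins of the dry seed, rose by 3.05 and 3.23. LEA7, LEA4-5 and COR413-PM1, the last a membrane protein, rose by 3.70, 3.28 and 3.37. TSPO, a membrane protein broken down with its cargo under stress, rose by 4.83. M17 (0.37) and the dehydrin HIRD11 (-0.15) were the members that were not called.

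Seed storage and oil body genes rose in part. Of 16 such genes, 12 rose and 0 fell, with a median of 1.17. OLEO1, an oleosin that coats oil bodies, had 49.7, 60.9 and 46.7 CPM in WT ABA against 7.54, 11.1 and 9.23 CPM in WT mock. OLEO2 had 57.2, 66.3 and 53.8 CPM in WT ABA against 8.02, 13.7 and 10.3 CPM in WT mock. The groups did not overlap, and log2 fold changes were 2.49 (SE 0.16) and 2.46 (SE 0.18). PER1, a seed peroxiredoxin, rose by 2.13. Cruciferins, the main globulins, rose less: CRA1 by 0.96 and CRU3 by 0.85. Of the 5 SESA genes for albumins only SESA5 was called (0.64); SESA1 to SESA4 differed by 0.75, 0.39, 0.34 and -0.22. These albumins are tandem copies with similar sequence, and their values are uncertain where reads were divided.

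Genes that use up the oil reserve rose slightly. Of 17 lipolysis and beta-oxidation genes, 15 rose and 0 fell, with a median of 0.25. ACX1, an acyl-CoA oxidase that opens the cycle, had 686, 653 and 659 CPM in WT ABA against 422, 380 and 392 CPM in WT mock. PED1, the thiolase of the cycle, had 1360, 1230 and 1340 CPM in WT ABA against 1150, 898 and 1010 CPM in WT mock. The log2 fold changes were 0.74 (SE 0.047) and 0.36 (SE 0.084). Most other members rose by less than that, such as MFP2 by 0.35 and the lipase SDP1 by 0.23. With limma on log2(cRPKM + 1), 9 of the 17 were called higher. In the glyoxylate cycle and gluconeogenesis 7 of 10 rose and 1 fell, with CSY3, a citrate synthase, at 0.61 and PPDK at 0.52. PCK2 was the one that fell, with 3.25, 3.03 and 3.26 CPM in WT ABA against 12.7, 13.1 and 15.6 CPM in WT mock, while PCK1 (0.15) and ICL (0.17) were not called.

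**Figure D3:**
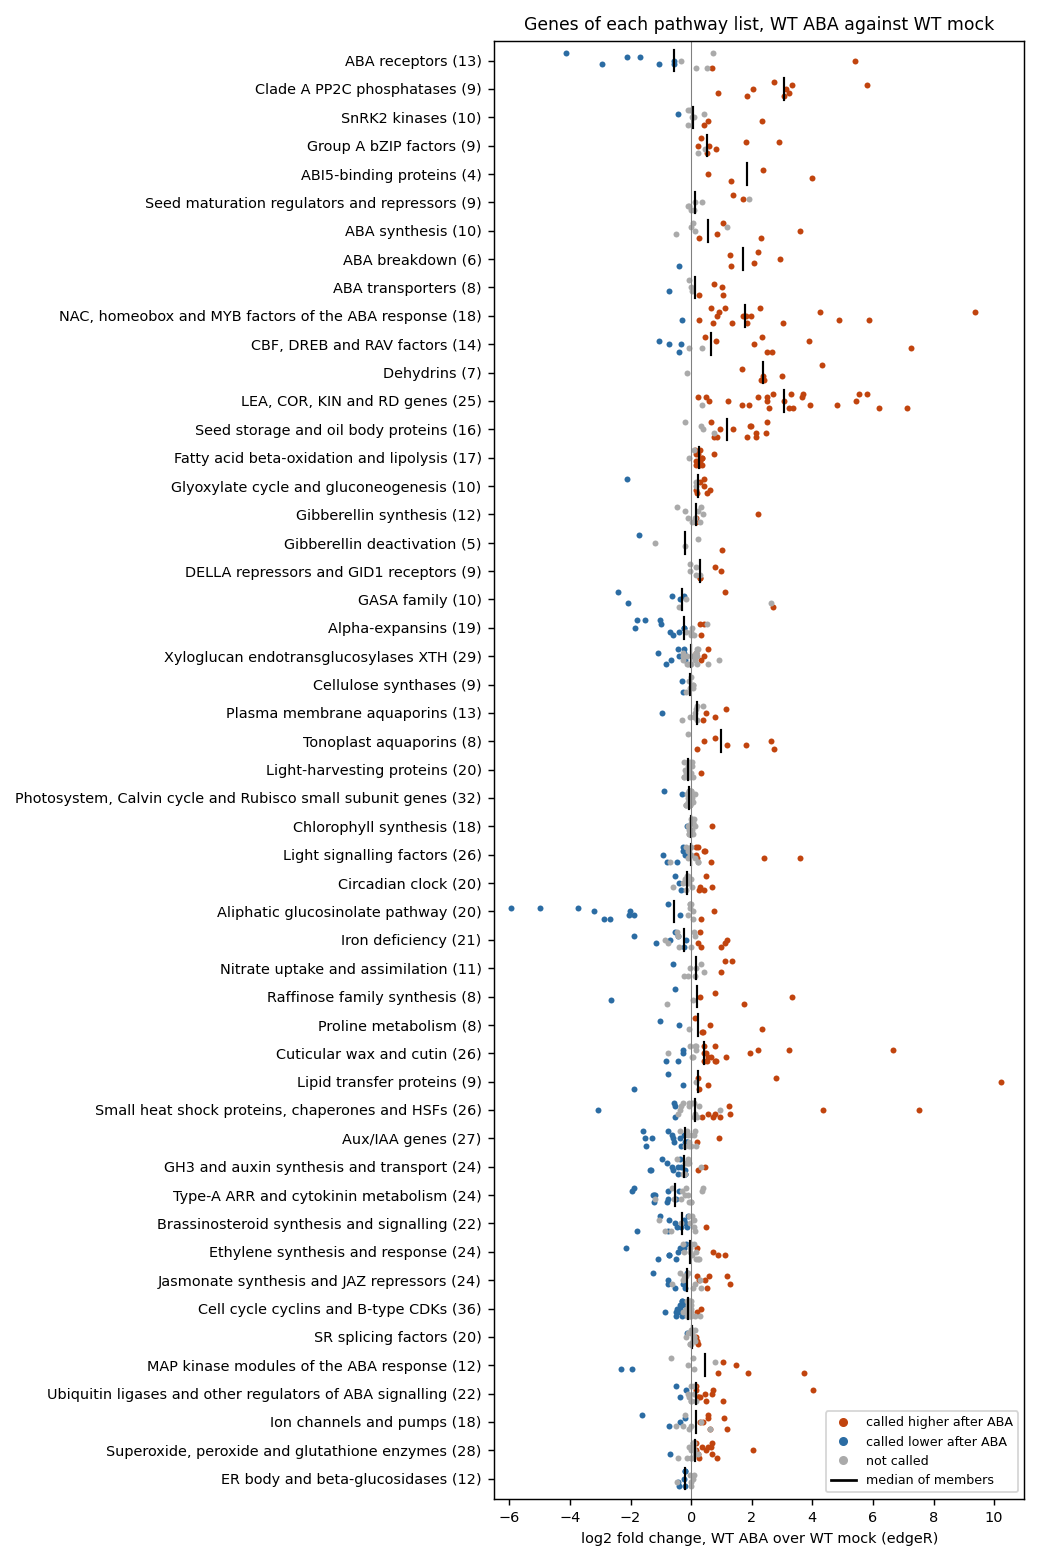
Log2 fold change of WT ABA over WT mock for each tested gene of the 51 pathway lists, with the number of tested genes in brackets. Orange points were called higher and blue points called lower (edgeR, adjusted p under 0.05), grey points were not called, and black bars are medians; fitted values of genes with 0 reads in all mock libraries, such as MYB41 and LTP4, depend on the prior count. PP2C, LEA and dehydrin genes lie far right, and light-harvesting and photosystem genes stay close to 0.

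Gibberellin is the hormone that opposes ABA in seeds, and few of its synthesis genes were called. Of 12 synthesis genes, 3 rose and 0 fell, GA20OX5 by 2.20 and GA3 and KAO2 by 0.15 each, while GA3OX1 and GA3OX2, which make the active hormone, differed by 0.12 and 0.30 without a call. Of 5 tested genes that inactivate gibberellin 1 rose and 1 fell, each by at least 1 on the log2 scale, with a median of -0.21. These shares are near the 18.2% and 17.0% of all genes. GA2OX6 was the one that rose, with 14.2, 15.7 and 13.7 CPM in WT ABA against 7.76, 6.38 and 7.59 CPM in WT mock. Of 9 DELLA and receptor genes, 4 rose and 0 fell. RGL3 had 25.9, 26.0 and 27.1 CPM in WT ABA against 12.4, 13.7 and 14.2 CPM in WT mock, and RGL2, the DELLA repressor of germination, averaged 36.9 ± 3.74 CPM in WT ABA and 21.6 ± 1.55 CPM in WT mock. RGA, a related DELLA of stem growth, differed by -0.05 without a call. In the gibberellin-responsive GASA family 2 of 10 rose and 5 fell. GASA6, which promotes growth after germination, had 5.93, 10.1 and 8.30 CPM in WT ABA against 21.4, 42.2 and 38.1 CPM in WT mock.

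Cell wall genes of expansion growth fell in part. Of 19 alpha-expansins, which loosen walls, 10 fell and 3 rose, with a median of -0.24. EXPA8 had 10.5, 12.4 and 11.9 CPM in WT ABA against 40.2, 39.4 and 41.4 CPM in WT mock. EXPA5 had 2.43, 3.56 and 3.38 CPM in WT ABA against 10.3, 11.4 and 12.2 CPM in WT mock. Replicates were close, and the log2 fold changes were -1.79 (SE 0.081) and -1.85 (SE 0.14). EXPA1 fell by 1.53, and EXPA4 rose by 0.42. Of 29 XTH genes for xyloglucan remodelling, 8 fell and 4 rose, and the lowered count was 4 without ABA replicate 1, 4 without mock replicate 3 and 5 without mock replicate 2. XTH31 averaged 204 ± 3.61 CPM in WT ABA and 319 ± 15.3 CPM in WT mock (SD, n = 3 each). Of 9 cellulose synthases 2 fell, CESA2 and CESA5, by 0.29 and 0.28, and 1 without mock replicate 2. A list of 36 cell cycle genes holds cyclins, kinases and the kinase inhibitor gene KRP7, which fell by 0.51. Of these 36 genes 12 fell and 2 rose, all called genes within 1 of 0 on the log2 scale. Without ABA replicate 2, 7 of them fell. Of those cell cycle genes 1 rose in place of 2 without ABA replicate 1, ABA replicate 2, mock replicate 1 or mock replicate 2.

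Water channels of the vacuole membrane rose. Of 8 tonoplast aquaporins 7 rose and 0 fell, with a median of 0.98. The seed form BETA-TIP had 9.45, 10.6 and 8.63 CPM in WT ABA against 1.52, 1.55 and 1.23 CPM in WT mock. ALPHA-TIP, also a seed form, had 7.21, 9.48 and 8.48 CPM in WT ABA against 2.56, 2.21 and 2.37 CPM in WT mock. GAMMA-TIP, a form of growing cells, also rose, by 0.78. In the plasma membrane group 4 of 13 rose and 1 fell (2 without mock replicate 1), with PIP1A at 167, 193 and 154 CPM in WT ABA against 61.4, 80.1 and 88.6 CPM in WT mock.

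Growth hormone genes were lowered more often than raised. Of 27 Aux/IAA genes, the early targets and repressors of auxin, 14 fell and 2 rose, but 0 rose without ABA replicate 3 and 1 without ABA replicate 1 or any mock replicate. In the list of GH3, auxin synthesis and auxin transport genes 13 of 24 fell and 2 rose (1 without ABA replicate 1, mock replicate 2 or mock replicate 3). GH3.3, which conjugates auxin, had 29.9, 31.6 and 23.6 CPM in WT ABA against 71.3, 69.4 and 72.0 CPM in WT mock. The carriers AUX1, PIN3, LAX3 and PIN7 fell by 0.62, 0.44, 0.42 and 0.32, and the synthesis gene TAA1 by 0.36. Of 24 cytokinin genes 11 fell and 0 rose (1 without mock replicate 3), with a median of -0.52. CKX5, a cytokinin oxidase, had 6.67, 4.31 and 4.47 CPM in WT ABA against 12.5, 11.2 and 12.6 CPM in WT mock. CKX6 had 1.74, 1.31 and 1.86 CPM in WT ABA against 4.12, 3.49 and 4.18 CPM in WT mock. Of the listed enzymes of synthesis, IPT5 fell by 0.79 and LOG1 by 0.76. Grouped by symbol, 2 of 8 LOG genes rose and 2 fell, with a median of 0.0, and the raised ones are not in this list. Most type-A response regulators, read-outs of cytokinin signalling, were not called, including ARR4 (0.01), ARR5 (-0.29) and ARR9 (0.01), while ARR7 fell by 0.77.

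For brassinosteroid, 11 of 22 genes fell and 1 rose, with 7 lower without ABA replicate 1 or without mock replicate 2. BEE1, an early response factor, had 1.66, 1.90 and 1.34 CPM in WT ABA against 5.59, 5.78 and 5.63 CPM in WT mock. The synthesis gene DWF4 fell by 0.52 and the receptor gene BRI1 by 0.21, and the raised gene was the factor BES1 (0.49). For ethylene 4 of 24 genes rose and 9 fell. ACO1, which makes ethylene, had 23.4, 20.1 and 23.3 CPM in WT ABA against 49.8, 44.8 and 47.1 CPM in WT mock, and the repressor ERF4 had 43.7, 44.6 and 45.9 CPM against 22.0, 19.4 and 21.0 CPM in WT mock. Jasmonate genes were split, with 7 of 24 higher and 7 lower. JAZ4 fell by 1.26 and JAZ9 by 0.76, while JAZ3 and JAZ12, repressors of the same family, rose by 0.58 and 0.51.

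Photosynthesis genes stayed near their mock level. Of 20 light-harvesting genes 1 rose and 0 fell, and of 32 photosystem, Calvin cycle and Rubisco small subunit genes 2 fell and 0 rose, with medians of -0.09 and -0.06. The raised light-harvesting count was 0 without ABA replicate 2, mock replicate 1 or mock replicate 2, and 3 such genes fell without ABA replicate 2. RBCS1B, a small subunit gene, was the clearest exception, with 110, 108 and 93.5 CPM in WT ABA against 187, 213 and 183 CPM in WT mock. It lies in a tandem row with RBCS2B and RBCS3B, which have nearly the same sequence, so its value is uncertain. Of 18 chlorophyll synthesis genes 1 rose and 1 fell, PORA by 0.69 and PORB by 0.15. In the light signalling list 9 of 26 rose and 7 fell, and the lowered count was 1 without ABA replicate 3, 2 without mock replicate 2, 3 without mock replicate 1 and 4 without ABA replicate 2. PIF5 had 13.8, 12.4 and 8.60 CPM in WT ABA against 22.7, 20.4 and 17.8 CPM in WT mock. Of 20 clock genes 5 rose and 3 fell, near the 18.2% and 17.0% of all genes. The clock genes lay within 1 of 0 on the log2 scale, with RVE6 at 0.69 and LNK2 at -0.53. That reading depends on the fit. With a term for the replicate number 7 clock genes fell (4326 of all genes), and with limma on log2(cRPKM + 1) 5 fell (4602 of all genes).

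Early steps of aliphatic glucosinolate synthesis were among the strongest decreases. Of 20 tested genes 11 fell and 2 rose, with a median of -0.56. The raised ones were FMOGS-OX3 (0.74) and the indolic gene CYP79B2 (0.32). FMOGS-OX4, which the list leaves out, rose by 2.69. Summed over the listed genes, levels were 827 to 857 CPM in WT ABA and 827 to 843 CPM in WT mock, so the total did not fall. MAM3, which elongates methionine chains, had 0.308, 0.535 and 0.298 CPM in WT ABA against 3.72, 6.02 and 5.56 CPM in WT mock. MYB28, the factor that drives the pathway, had 6.30, 7.48 and 4.67 CPM in WT ABA against 9.36, 10.3 and 11.7 CPM in WT mock. In both the groups did not overlap, with log2 fold changes of -3.73 (SE 0.31) and -0.76 (SE 0.16). The side-chain gene BCAT4 had 0, 1 and 0 reads in WT ABA against 21, 43 and 30 in WT mock, and CYP83A1 of the core pathway had 0, 2 and 2 reads against 16, 66 and 80 in WT mock. IPMI1, IPMI2, IMD1 and BAT5 fell by 2.68, 2.01, 1.89 and 2.05. The final enzymes SUR1 (0.00), SOT17 (-0.12) and SOT18 (-0.05), and the indolic gene CYP83B1 (-0.04), were not called. Among genes of ER bodies, the compartments that store beta-glucosidases, 6 of 12 fell by at most 0.43 and 0 rose.

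Genes of proline synthesis and breakdown moved in opposite directions at the first steps. P5CS1, which makes proline, had 276, 279 and 283 CPM in WT ABA against 54.7, 53.9 and 56.1 CPM in WT mock. PRODH1, which degrades proline, had 57.4, 63.4 and 68.0 CPM in WT ABA against 116, 129 and 138 CPM in WT mock. The log2 fold changes were 2.35 (SE 0.054) and -1.02 (SE 0.083), and in all 5 of 8 proline genes rose (3 without mock replicate 3) and 2 fell. P5CDH, a later step of breakdown, rose by 0.62. In the raffinose list 4 of 8 rose and 2 fell. GOLS2 for galactinol synthase had 10.3, 9.40 and 11 CPM in WT ABA against 0.958, 1.25 and 0.781 CPM in WT mock. DIN10, a gene of the raffinose synthase family that responds to dark and sugar, had 49.8, 68.2 and 59.1 CPM in WT ABA against 315, 393 and 411 CPM in WT mock.

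Surface lipid genes rose in 15 of 26 cases and fell in 4, with a median of 0.42. KCS2, which elongates fatty acids, had 85.9, 77.6 and 59.1 CPM in WT ABA against 9.33, 7.42 and 6.87 CPM in WT mock. CER1, which makes wax alkanes, had 360, 326 and 324 CPM in WT ABA against 95.8, 82.5 and 87.6 CPM in WT mock. These genes did not overlap between groups, with log2 fold changes of 3.24 (SE 0.16) and 1.93 (SE 0.074). CER8, a long-chain acyl-CoA synthetase gene, fell by 0.82. Among lipid transfer proteins 5 of 9 rose and 3 fell. LTP3 had 19.8, 20.8 and 23.3 CPM in WT ABA against 3.91, 2.93 and 2.45 CPM in WT mock, and its tandem neighbour LTP4 had 108, 178 and 122 reads in WT ABA and 0 reads in all WT mock libraries. EARLI1, a hybrid proline-rich protein of this list, fell by 1.88.

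Detoxifying enzymes rose in part. In the list for superoxide, peroxide and glutathione 13 of 28 rose and 1 fell (2 without ABA replicate 2). GSTU17, a glutathione transferase, had 197, 179 and 169 CPM in WT ABA against 48.4, 41.9 and 41.3 CPM in WT mock, and the glutathione reductase gene GR1 rose by 0.84. The NADPH oxidase gene RBOHD was the one that fell, with 30.4 ± 3.42 CPM in WT ABA and 49.8 ± 3.32 CPM in WT mock (SD, n = 3 each). Iron genes were split, with 6 of 21 higher and 7 lower (4 lower without mock replicate 1). FER1 for the iron store ferritin had 605, 737 and 558 CPM in WT ABA against 256, 316 and 301 CPM in WT mock, while NAS3 for a metal chelator fell by 1.16. Of 11 nitrate genes 3 rose and 1 fell. NRT2.7, which loads nitrate into seed vacuoles, had 66.0, 60.3 and 65.7 CPM in WT ABA against 34.1, 31.2 and 30.8 CPM in WT mock. Among ion channels and pumps 7 of 18 rose and 4 fell, with the outward potassium channel gene GORK up by 1.19 and the proton pump gene HA2 down, at 519 ± 26.1 CPM in WT ABA and 678 ± 36.7 CPM in WT mock (SD, n = 3 each).

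Genes were also grouped by the letters of their symbols, which gave 285 families with at least 8 tested genes. The highest shares of raised members were in COR (7 of 8), TIP (7 of 8), ALDH (12 of 14), DREB (10 of 12), SDH (9 of 11), LTP (6 of 8), FTSH (8 of 11) and RAP (8 of 12). ERD, with 6 of 9, had the same share as RAP, and the family with more tested genes was plotted. In the aldehyde dehydrogenases ALDH2B7 rose by 1.79 and ALDH7B4, which clears reactive aldehydes, by 1.07, and the other raised members by 0.13 to 0.62. SDH holds subunits of succinate dehydrogenase, where SDH2-3, a form of seeds, rose by 2.54 and the other raised members by at most 0.49. FTSH holds membrane proteases of chloroplasts and mitochondria, raised by at most 0.57. The SDH and FTSH counts were 4 and 4 with limma on log2(cRPKM + 1), SDH was at 5 without ABA replicate 1 and 4 without mock replicate 2, and FTSH was at 5 without mock replicate 3.

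The highest shares of lowered members were in SKS (7 of 10), CYCA (6 of 9), MCM (6 of 9), PRMT (5 of 8), RHS (5 of 8), RTFL (5 of 8), JAL (14 of 24) and AAP (5 of 9). MCM2 to MCM7, the 6 subunits of the helicase that opens DNA for replication, all fell, by 0.19 (MCM4) to 0.60 (MCM6). The called A-type cyclins, known from S phase, fell by 0.19 to 0.88, but only 2 of them were called without ABA replicate 2 or without mock replicate 3, and 3 without ABA replicate 3 or without mock replicate 2. Protein arginine methyltransferases fell by at most 0.36. RTFL genes code for small peptides that limit cell proliferation, and RTFL16 fell by 2.15. JAL genes code for jacalin-related lectins, and JAL44 and JAL9 fell by 1.58 and 1.44 while 4 members rose (2 without ABA replicate 1, mock replicate 1 or mock replicate 2). AAP joins amino acid permeases with a pair of unrelated genes of like symbol: AAP4 and AAP3 fell by 1.82 and 1.44, and AAP1, which takes up amino acids in seeds and roots, rose by 1.5.

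**Figure D4:**
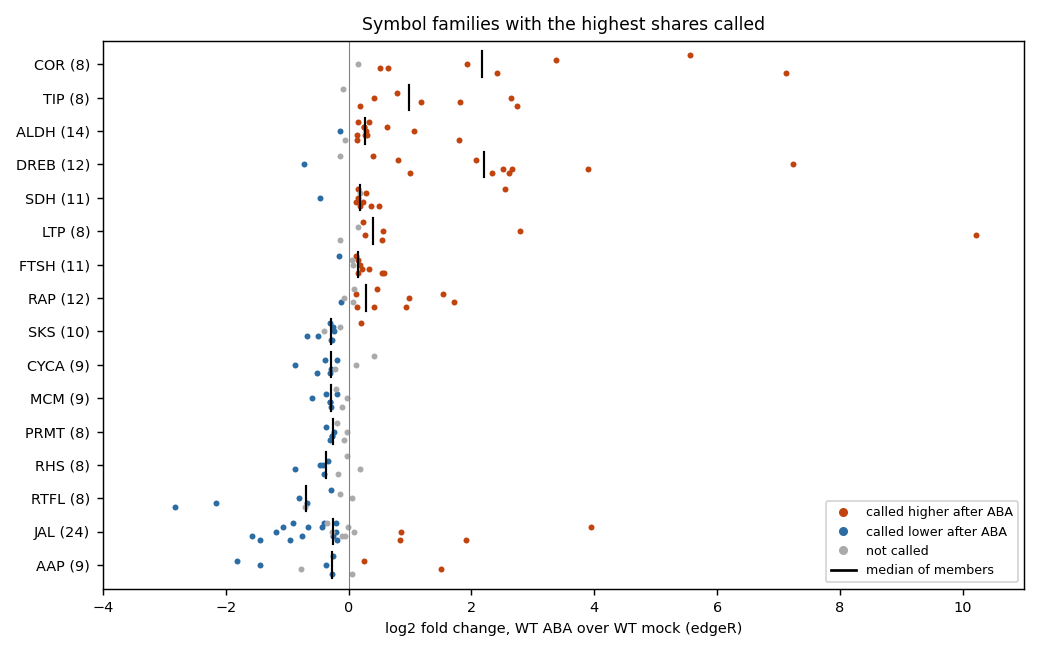
Log2 fold change of WT ABA over WT mock for every tested member of the 16 symbol families with the highest shares called, the raised families above and the lowered ones below, with the number of members in brackets. Colours and bars are as in the plot of the pathway lists. Beside LTP4, COR and DREB members reach furthest right, and the lowered families mostly stay within 1 of 0. Fitted values of genes with 0 reads in all mock libraries, such as LTP4 and CBF1, depend on the prior count.

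Markers of tissues moved with treatment in some lists. Of 6 root tip markers 3 fell and 0 rose, and their summed level was 11.5 to 13.5 CPM in WT ABA and 20.9 to 21.7 CPM in WT mock. PLT1 and SMB, a stem cell factor and a root cap factor, fell by 1.40 and 1.02. In these whole seedlings fewer cells of a type and less RNA per cell cannot be told apart. Of 7 mature seed markers 5 rose, and their sum was 443 to 544 CPM in WT ABA and 114 to 168 CPM in WT mock; these overlap the LEA and storage lists above. Of 5 endosperm markers ZOU had 0 reads in all WT libraries, 3 of the other 4 rose and 1 fell, and the sum was 351 to 365 CPM in WT ABA and 383 to 416 CPM in WT mock. Epidermis (1 of 4 higher, 1 lower), root hair (2 of 7 higher), guard cell (1 of 5 higher, 1 lower), vasculature (2 of 7 higher, 2 lower) and shoot meristem (1 of 4 lower) showed no common direction. The part of such shifts in the gene lists was not tested.

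Few splicing events were called. Of 28000 events tested in 9973 genes, 5 or 0.0179% differed (limma, p under 0.05 after Benjamini-Hochberg adjustment), with 3 at higher and 2 at lower percent spliced in (PSI, the share of reads that include the segment). At an unadjusted p under 0.05 there were 1615 events, or 5.77%. The called events were 3 of 1115 exons and 2 of 16719 introns, with 0 of 7048 acceptor sites and 0 of 3118 donor sites. By event type an unadjusted p under 0.05 was reached by 123 exons, 758 introns, 509 acceptors and 225 donors. Mean PSI over all tested introns was 8.98 to 9.30 in the WT ABA libraries and 9.19 to 9.51 in the WT mock libraries, ranges that overlap. Among SR splicing factor genes 4 of 20 rose and 1 fell, all by at most 0.22 on the log2 scale, and SR34A differed by -0.04 without a call; 1 rose without ABA replicate 1 and 2 without ABA replicate 2, mock replicate 2 or mock replicate 3, and 0 fell without ABA replicate 2, ABA replicate 3 or mock replicate 1.

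Sequences of the called events inside coding regions are shown to place the segments whose use changed. They are from TAIR10.1, whose sequence gave GT or GC and AG at the ends of 99.83% of 115163 deposited introns, and each has 10 bases on either side. Capitals mark exon bases and lower case marks intron bases.
GGH1 intron (plus strand, chr1:29585956-29586065 without the sides): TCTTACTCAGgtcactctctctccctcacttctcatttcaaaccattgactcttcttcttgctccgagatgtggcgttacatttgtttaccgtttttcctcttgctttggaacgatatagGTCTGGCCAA
BGLU9 exon (minus strand, chr4:13860292-13860355 without the sides): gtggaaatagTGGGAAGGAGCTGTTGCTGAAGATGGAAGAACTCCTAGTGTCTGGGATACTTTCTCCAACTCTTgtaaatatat
AAE17 exon (minus strand, chr5:7732891-7732985 without the sides): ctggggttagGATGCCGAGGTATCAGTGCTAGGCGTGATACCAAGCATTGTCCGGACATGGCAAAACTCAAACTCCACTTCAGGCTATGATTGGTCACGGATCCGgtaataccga
The BGLU9 and AAE17 exons, of 64 and 95 bases, are not multiples of the codon length, and nor is the GGH1 intron of 110 bases.

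The called introns moved in opposite directions. The ALDH7B4 intron was retained more. This 106-base intron on chromosome 1 (20198856 to 20198961), outside the coding bases, had PSI of 50.8, 54.8 and 59.5 in WT ABA against 33.5, 38.3 and 33.1 in WT mock, with 416 to 845 reads per library (limma, Benjamini-Hochberg adjusted p 5.48e-04). The ALDH7B4 gene rose as well, with 224 ± 1.16 CPM in WT ABA and 107 ± 5.05 CPM in WT mock (SD, n = 3 each). The GGH1 intron, in a gene for a gamma-glutamyl hydrolase of folate turnover, went the other way, with 42.1, 35.2 and 37.2 in WT ABA against 53.9, 52.6 and 52.9 in WT mock (adjusted p 6.05e-04 in the same test). Its gene level fell by 0.48 on the log2 scale.

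Exon use changed in BGLU9, AAE17 and AT4G05040. The BGLU9 exon, in a beta-glucosidase gene, had PSI of 81.1, 86.8 and 73.3 in WT ABA against 68.1, 59.7 and 66.8 in WT mock. This event held 306 to 595 reads per library, many for a gene at 4.83 CPM in WT ABA and 5.08 CPM in WT mock. Whether reads of similar genes entered it was not tested, so its PSI is uncertain. The AAE17 exon, in an acyl-activating enzyme gene, had 97.6, 96.1 and 94.3 in WT ABA against 87.8, 88.6 and 89.8 in WT mock. A 72-base exon of the ankyrin repeat gene AT4G05040 (chromosome 4, 2579601 to 2579672), outside the coding bases, had 37.5, 40.0 and 43.7 in WT ABA against 59.1, 62.4 and 64.2 in WT mock. No library overlapped the other group in these exons, and all had an adjusted p of 0.026 in limma with Benjamini-Hochberg adjustment. BGLU9 was not called for its level (log2 fold change -0.07), while AAE17 rose by 0.68 and AT4G05040 fell by 0.25. Of 9961 genes with both tests, 36.3% were called for expression, and 4 of the 5 events lay in such genes. Without any mock library in turn, 2 events were called in place of 5, those of ALDH7B4 and GGH1, and without ABA replicate 1 the count was 9. With no trend on the sampling variance in limma, 0 events passed.

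**Figure D5:**
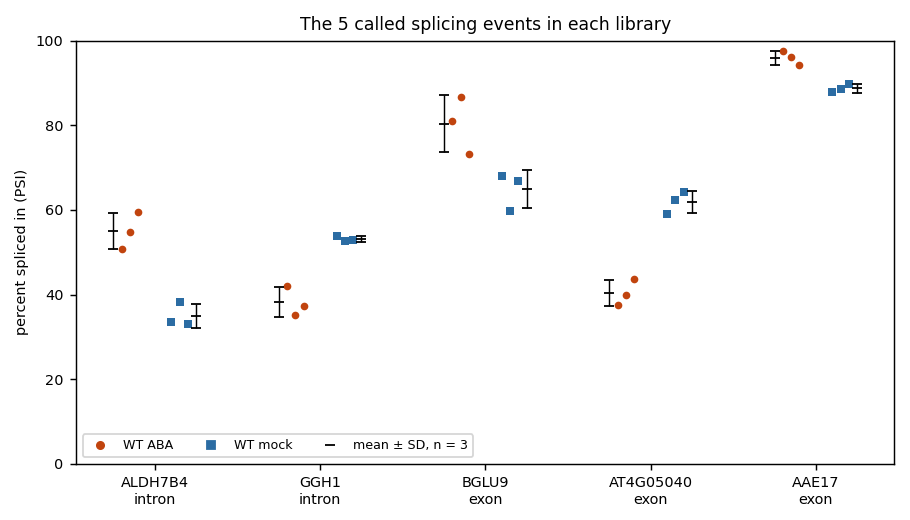
Percent spliced in of the 5 called events in each WT ABA library (circles, left of each pair) and each WT mock library (squares, right), with mean and SD as bars (n = 3). The ALDH7B4 intron and the BGLU9 and AAE17 exons are higher in WT ABA, the GGH1 intron and the AT4G05040 exon lower, and in none do the libraries of the groups overlap.

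In the ABA pathway itself no splicing event was called. Genes of ABA signalling and metabolism held 81 tested events in 30 genes, of which 0 had an adjusted p under 0.05 and 8 an unadjusted p under 0.05 in limma, with the smallest adjusted p at 0.554. An intron of HAB1, a clade A phosphatase, had PSI of 19.0, 18 and 18.8 in WT ABA against 12.9, 13.3 and 11.6 in WT mock, and one of ABF4 had 26.8, 19.2 and 16.6 in WT ABA against 9.68, 14.0 and 8.46 in WT mock. Both sets stood apart between treatments, but neither passed the test over all events. An intron of EEL, also added after its values were seen, went the other way, with mean PSI of 38.2 in WT ABA and 54.5 in WT mock. That difference was the largest of the 81 events, but the libraries overlapped and the event was not called. A range rule without a p-value, chosen after seeing the data, required group means 15 or more PSI apart with no library closer than 5 to the other group, and was met by 73 events, 37 of them higher in WT ABA.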

How the data were processed

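Polyadenylated RNA of whole WT seedlings was sequenced in 3 WT ABA and 3 WT mock libraries, per the labels' protocols. The gene table deposited by the authors holds a read count and a cRPKM (RPKM corrected for mappable length) for each gene and library, per the file headers. The splicing table deposited by the authors holds PSI as a percent with the reads behind it, per the file headers. The genome build is TAIR10, per the submitters' processing notes; the aligner, the counter and the use of strand are not given in the sources used here, so genes that overlap on opposite strands may share reads. Groups and replicate numbers came from sample titles, and 0 columns of per-sample values were left unused.

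Counts of all 12 libraries were fitted with a mean per group by edgeR 4.0.16 (R 4.3.3; TMM, filterByExpr, quasi-likelihood test, Benjamini-Hochberg adjustment over 21256 genes). SEs were taken as the log2 fold change over the square root of F. Splicing was fitted by limma 3.58.1 on log2 of inclusion over exclusion reads, with 0.5 added to each, for events with at least 10 reads in every library and a mean PSI from 2 to 98. Both fits were tested on simulated data. There the splicing fit missed many of the changed events, so few calls do not show that splicing stayed the same. A total of 3 counts in a library corresponded to 0.0351 to 0.0497 CPM, for counting error only. DESeq2 1.42.0, limma on log2 cRPKM, other filters, windows and left-out libraries were alternatives. The genes with the largest changes were named as the 12 in each direction past the adjusted p threshold of 0.05 with non-overlapping libraries and a log2 of the mean CPM over the WT libraries of at least 1; in each list, library values were given for up to 2 members in each direction by the same criteria, and those of BCAT4, CBF1, CYP83A1, LTP4, MYB41 and PYL13 and of the uncalled HAB1 and ABF4 introns were added after their values were seen. Lists, markers and members were chosen with earlier results of these data known. Positions, names and promoters came from RefSeq TAIR10.1.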

Additional observations from a re-analysis of the deposited data

How the results depend on the processing

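The count of called genes stayed between 6201 and 6771 when 1 library was left out, and was 6848 with the WT libraries alone, 7779 with DESeq2, 7625 with limma on log2(cRPKM + 0.1) and 7279 with no filter on low counts. Asking for an absolute log2 fold change of at least 1 left 1420 genes, 172 of 465 called list members and 34 of 132 called members of the 16 plotted symbol families. Splicing calls moved most: 8 events with the WT libraries alone, 7244 with no filter on mean PSI, 0 with no trend, 73 with the range rule chosen after seeing the data, and 2 to 9 with 1 library left out; the cause was not tested. The share of raised promoters with ACGTGNC was 35.2%, 30.2% with 250 bases before the start alone, and 41.8% in a window from 500 before to 50 after, chosen after seeing the data. Of 481 called genes among the named and listed ones, 0 reversed direction while called and 385 kept call and direction in every refit. The labels do not say whether samples that share a replicate number were handled together. Their deviations from the group means correlated at 0.190, 0.178 and 0.026, against -0.21 to 0.069 for pairs of different numbers. ABA replicate 3 correlated best with mock replicate 1 (0.029). The main fit held no term for the replicate number (replicate block), and what same-numbered samples had in common was not tested. With the replicate block 8776 genes, 530 list members, 133 members of the plotted families and 6 splicing events were called. Counts of some lists moved with it. For example, 7 SR genes, 7 plasma membrane aquaporins, 6 nitrate genes and 6 gibberellin synthesis genes were called higher. In the same fit 7 clock genes and 4 light-harvesting genes were called lower.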
